A study of Mus musculus with 9 samples.

Results

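Vagal slowing of the heart depends on a short signalling chain in atrial and pacemaker cells, and 9 of its genes were followed here: Kcnj3, Kcnj5, Chrm2, Gnai2, Gnao1, Gnb5, Rgs4, Rgs6 and Ache. Every probe set, the group of array probes that measures a transcript, was taken when it is annotated to one of these symbols and to no other gene. This gave 19 of 34945 probe sets, for 8 of the 9 genes, out of 18193 genes measured. Chrm2, which encodes the M2 muscarinic receptor itself, is not analysed here, because none of the annotated probe sets carries its name alone. Kcnj3 had 4 probe sets, Gnao1 and Rgs4 had 3 each, Kcnj5, Gnai2, Gnb5 and Rgs6 had 2 each, and Ache had 1.

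Acetylcholine released by vagal nerve endings binds the M2 receptor, which activates heterotrimeric G proteins of the inhibitory Gi and Go class. The freed beta-gamma subunits open GIRK channels, potassium channels that in the atrium are built from the subunits GIRK1 (Kcnj3) and GIRK4 (Kcnj5), and the membrane potential is pulled toward rest. RGS proteins end the signal by speeding GTP hydrolysis on the alpha subunit, RGS6 in a complex with the atypical beta subunit Gnb5, and acetylcholinesterase (Ache) ends it outside the cell by breaking down the transmitter.

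Expression was measured on 9 Affymetrix arrays, 3 biological replicates in each of 3 groups, all from C57BL/6 mice at 2 months of age. The mutant right atria came from Myh6-cre; COUP-TFIIflox/flox mice, where the Myh6 promoter switches on Cre in heart muscle cells and Cre deletes Nr2f2, the gene of the nuclear receptor COUP-TFII. The control ventricles and the control right atria came from COUP-TFIIflox/flox mice without Cre, so an effect of Cre cannot be told apart from the loss of COUP-TFII. The gene is not deleted by this Cre in the other cells of the tissue, and the labels do not say whether tissue of several mice was pooled. Values are log2 intensities, and differences are log2 differences ± SE from a limma fit of all 9 arrays, called where the p adjusted over all 34945 probe sets was under 0.05. Levels are not compared between probe sets, whose probes differ in brightness. Where a gene has several probe sets, the one with the highest mean over the 9 arrays is called its brightest.

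For the whole set of arrays, the median intensity lay between 80.9 and 83.4 on the linear scale. Nr2f2 was at 6.82, 6.62 and 6.82 in mutant atria, against 7.53, 7.66 and 7.29 in control atria, by its brightest probe set (-0.74 ± 0.15, adjusted p = 0.0113). Of its other 5 probe sets 3 were called lower, down to -1.29 ± 0.13, and 2 were not called (-0.48 ± 0.18 and 0.14 ± 0.11). Which exons Cre deletes is not stated in the labels, and probes outside those exons are no check of the deletion. The mean of 8 hepatocyte marker genes was 5.61 to 5.67 in mutant atria, 5.34 to 5.49 in ventricles and 8.08 to 10.6 in control atria, and all 8 fell in mutant against control atria. The mean of 7 mesothelial markers was 7.94 to 8.06, 6.51 to 6.79 and 9.38 to 9.67 in the same order of groups, and all 7 fell. Markers of atrial muscle averaged 11.5 to 12.2 in mutant atria, 6.80 to 7.86 in ventricles and 12.7 to 12.8 in control atria, and those of ventricular muscle 10.2 to 10.6, 10.9 to 11.1 and 8.13 to 8.47. In mutant against control atria, 3 of the 7 atrial markers were called lower and 0 higher. Of the 5 ventricular markers, 4 were called higher and 1 lower. Y-linked genes averaged 3.73, 8.84 and 8.84 in mutant atria, 3.78 to 3.85 in ventricles and 5.22, 8.81 and 8.33 in control atria. The sexes were thus not balanced between the groups. No ventricle array showed the high level seen in both groups of atria, so sex and chamber cannot be fully told apart in the ventricle comparisons. The gap between 3' and 5' probe sets of Gapdh, which widens as RNA degrades, was 0.21 to 0.30 on the log2 scale in mutant atria, 0.15 to 0.23 in ventricles and 0.34 to 0.36 in control atria, and its part in the differences was not tested. In bulk tissue, fewer cells of a type and less RNA per cell cannot be told apart, which holds for every difference below.

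The promoters of the 4 members whose group means lay furthest apart are shown first, since COUP-TFII binds copies of AGGTCA and its variant GGGTCA, and T-box factors of the heart bind AGGTGT. Each sequence is the 250 bases before the gene start in the RefSeq table for mouse build GRCm38.p6, read 5′ to 3′ on the strand of the gene, with any match to one of these 3 motifs on either strand in capitals. Kcnj3 lies at chr2:55435720-55435969 on the plus strand, Kcnj5 at chr9:32344345-32344594 on the minus strand, Gnao1 at chr8:93810588-93810837 on the plus strand and Ache at chr5:137288004-137288253 on the plus strand.
Kcnj3: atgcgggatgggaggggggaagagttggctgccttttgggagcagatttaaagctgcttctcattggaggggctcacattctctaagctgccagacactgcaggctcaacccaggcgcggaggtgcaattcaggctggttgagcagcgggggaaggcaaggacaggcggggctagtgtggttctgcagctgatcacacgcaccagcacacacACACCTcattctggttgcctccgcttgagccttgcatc
Kcnj5: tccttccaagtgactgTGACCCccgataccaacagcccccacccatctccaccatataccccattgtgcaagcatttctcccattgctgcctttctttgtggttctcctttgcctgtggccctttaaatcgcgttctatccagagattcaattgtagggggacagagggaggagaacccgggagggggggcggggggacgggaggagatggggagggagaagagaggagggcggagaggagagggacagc
Gnao1: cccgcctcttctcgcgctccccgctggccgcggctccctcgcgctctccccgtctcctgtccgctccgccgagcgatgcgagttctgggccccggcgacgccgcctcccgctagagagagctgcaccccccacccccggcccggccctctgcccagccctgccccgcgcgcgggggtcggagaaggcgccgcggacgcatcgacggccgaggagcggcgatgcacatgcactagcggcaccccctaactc
Ache: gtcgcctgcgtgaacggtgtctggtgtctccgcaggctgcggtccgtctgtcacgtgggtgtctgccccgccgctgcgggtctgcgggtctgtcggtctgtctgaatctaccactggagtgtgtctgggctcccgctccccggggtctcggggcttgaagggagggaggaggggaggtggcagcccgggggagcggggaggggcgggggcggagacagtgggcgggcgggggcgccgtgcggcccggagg
The Kcnj3 window held AGGTGT on the opposite strand (ACACCT), starting 38 bases before the gene start. The Kcnj5 window held GGGTCA on the opposite strand (TGACCC), starting 234 bases before it. Neither Gnao1 nor Ache held any of the 3 motifs in this window. Of the 9 members, 8 had a sequence in the table, all but Gnai2, and 2 of these 8, Kcnj5 and Gnb5, held AGGTCA or GGGTCA, against 23.8% of 32851 windows of all genes. AGGTGT stood in 1 of the 8, against 11.8% of all windows. A match is a string of letters and not a binding site, and no binding was measured on these arrays.

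Right atrium of mutants differed from right atrium of controls in 4 of the 8 measured members by their brightest probe set, against 15.9% of all genes. Kcnj5 and Gnao1 were lower, and Ache and Gnai2 were higher. Over all genes, 6.92% were higher and 8.99% lower. Among the members' probe sets, 6 of 19 passed, 3 higher and 3 lower, against 13.9% of all probe sets (5.86% higher and 8.05% lower). The median difference of the 8 brightest probe sets was 0.08, against 0.03 over all genes. Ventricle of controls differed from right atrium of controls in 6 of the 8 members, 1 higher and 5 lower, where 51.3% of all genes passed (28.2% higher and 23.1% lower). Of the 19 probe sets 13 passed, 3 higher and 10 lower, where 47.2% of all passed (25.7% higher and 21.5% lower). The median difference of the 8 was -1.03, against 0.07 over all genes. Both comparisons use the same 3 control atria, so their values for a member are set side by side below and are not independent of each other.

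**Figure D1:**
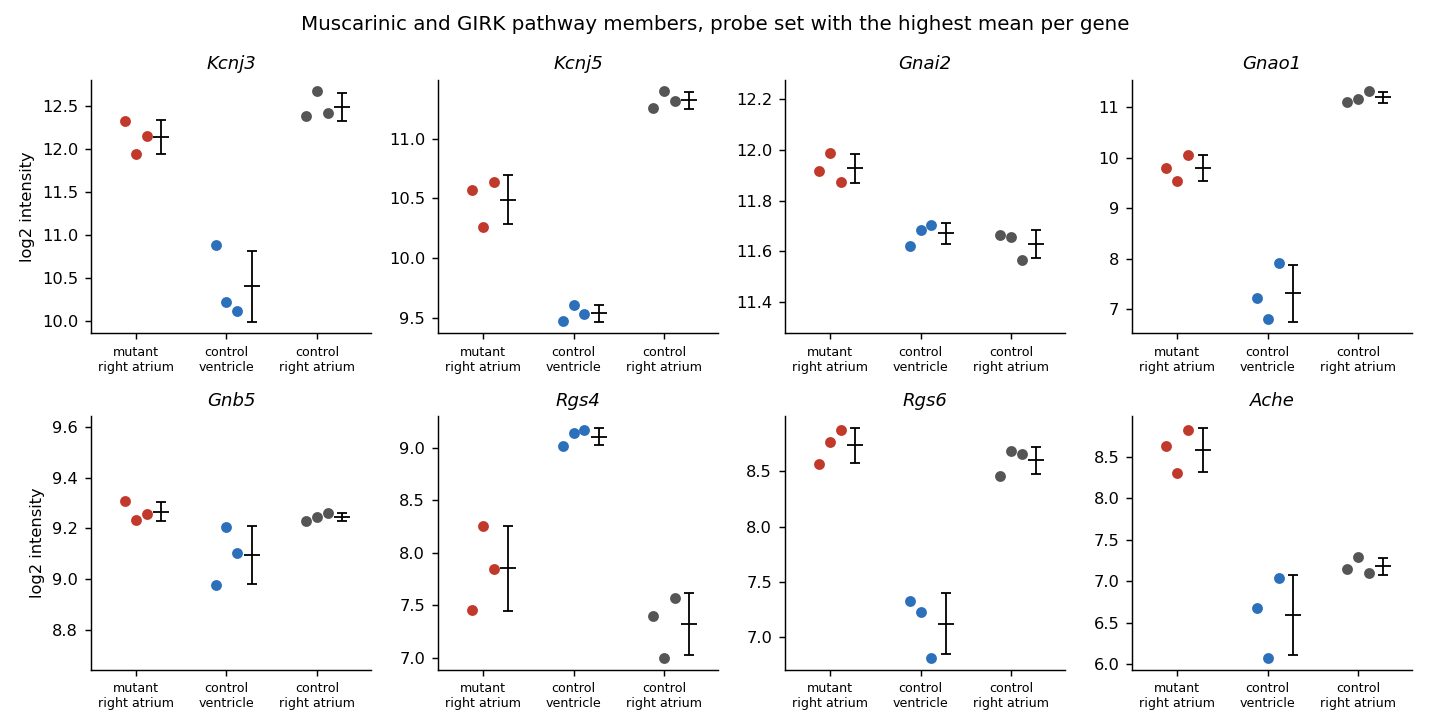
Log2 intensity (vertical axis, a separate range in each panel) of the brightest probe set of each of the 8 measured members in mutant right atria (red), control ventricles (blue) and control right atria (grey). Points are the 3 arrays of a group, and the bar beside them is the mean ± SD. Gnao1, Kcnj5 and Kcnj3 stood in the mutant between the ventricle and the control atrium without overlap. For Kcnj3 the step from control to mutant atrium was not called. Ache and Gnai2 were highest in the mutant without overlap, where Ache reached 8.30 to 8.83.

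Both channel subunits were abundant in right atrium and much lower in ventricle. Kcnj3, the GIRK1 subunit, is needed for high channel activity but does not form a working surface channel alone. Its brightest probe set, 1455374_at, read 12.33, 11.94 and 12.15 in mutant atria, 10.88, 10.22 and 10.12 in ventricles and 12.38, 12.67 and 12.42 in control atria. All mutant arrays lay just under all control atria, and all ventricles lay far below both. The mutant difference from the control atrium was -0.35 ± 0.19 (95% interval -0.76 to 0.07, adjusted p = 0.248) and was not called. The ventricle was 4.23-fold lower than the control atrium (-2.08 ± 0.19, adjusted p = 1.85e-05).

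The other 3 probe sets of Kcnj3 gave the same picture for the ventricle but not a single answer for the mutant. In the ventricle all 4 were lower, by between -1.53 and -2.53 on the log2 scale. In mutant against control atrium, 1444025_at differed by -0.43 ± 0.17 (adjusted p = 0.120) and 1421468_at by -0.21 ± 0.16 (adjusted p = 0.421). The dimmest, 1444336_at, read 5.74, 5.43 and 5.62 in mutant atria, 4.78, 5.26 and 4.92 in ventricles and 6.71, 6.39 and 6.45 in control atria, and it was called lower in the mutant (-0.92 ± 0.14, adjusted p = 0.00225). Its mean over the arrays stood at the 34.2 percentile of all probe sets, against the 97.0 percentile for the brightest. When the 4 probe sets were averaged before the fit, Kcnj3 was called lower in the mutant (-0.48, adjusted p = 0.0316).

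Kcnj5, the GIRK4 subunit, which can form channels on its own and carries GIRK1 to the cell surface, was clearly lower in the mutant. Its brightest probe set, 1441590_at, read 10.57, 10.26 and 10.64 in mutant atria, 9.47, 9.61 and 9.53 in ventricles and 11.25, 11.40 and 11.31 in control atria. The 3 groups did not overlap, with the mutant between the other two. Kcnj5 was 1.78-fold lower in mutant than in control atria (-0.83 ± 0.10, adjusted p = 0.000669). In ventricle it was 3.45-fold lower than in control atrium (-1.78 ± 0.10, adjusted p = 8.93e-07). The second, dimmer probe set, 1421762_at, at 6.02, 5.94 and 6.02 in mutant atria, 5.87, 5.47 and 5.80 in ventricles and 6.14, 6.26 and 6.23 in control atria, differed by -0.22 ± 0.10 in the mutant (adjusted p = 0.182) and passed only in the ventricle (-0.50 ± 0.10, adjusted p = 0.00304).

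Whether the transcripts of the 2 subunits changed unequally was asked within each array, as the log2 intensity of Kcnj5 minus that of Kcnj3 by their brightest probe sets. This difference averaged -1.65 in mutant atria, -0.87 in ventricles and -1.17 in control atria, where only its change between groups can be read and not its level. It lay between -1.76 and -1.51 in mutant atria and between -1.27 and -1.10 in control atria, without overlap, a change of -0.48 (2-sided exact permutation test p = 0.1, adjusted over 3 comparisons 0.15). With 3 against 3 arrays, 0.1 is the smallest p this test can give. Between ventricle and control atrium the change was 0.30 (exact permutation p = 0.4), with overlap. The sign of the change in the mutant turned with other probe sets of the 2 genes, so the arrays give no settled answer.

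The other GIRK subunits are mainly known from neurons. Kcnj9 (GIRK3) differed by 0.12 ± 0.12 between mutant and control atrium (adjusted p = 0.553) and was higher in the ventricle by 0.35 ± 0.12 (adjusted p = 0.0358), with arrays that overlap. That call was kept in 4 of 9 fits without 1 array, with adjusted p up to 0.127, and was lost with the Y-linked covariate (0.0562) and in a fit of only the 2 groups (0.0659). By their brightest probe sets, 1 of the 4 subunits passed in the mutant comparison (Kcnj5, lower), and 2 were lower and 1 higher in ventricle.

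Gnao1, the alpha subunit of Go, was lower in mutant atrium and lower still in ventricle. Its brightest probe set, 1421152_a_at, read 9.80, 9.54 and 10.05 in mutant atria, 7.23, 6.81 and 7.92 in ventricles and 11.09, 11.17 and 11.31 in control atria. The groups were far apart and did not overlap. Gnao1 was 2.63-fold lower in mutant than in control atria (-1.39 ± 0.24, adjusted p = 0.00443) and 14.6-fold lower in ventricles than in control atria (-3.87 ± 0.24, adjusted p = 1.6e-06). The mutant atrium still stood 5.56-fold above the ventricle (2.48 ± 0.24, adjusted p = 5.68e-05). The other 2 Gnao1 probe sets did not follow: 1448031_at lay between 6.55 and 6.69 and 1460383_at between 5.76 and 6.09 on all arrays, and neither passed in any of the 3 comparisons. The value of 1448031_at was identical on 5 of the 9 arrays.

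Gnai2, the most widely expressed Gi alpha subunit, moved the other way in the mutant and by much less. Its brightest probe set, 1435652_a_at, read 11.92, 11.99 and 11.88 in mutant atria, 11.62, 11.69 and 11.70 in ventricles and 11.66, 11.66 and 11.57 in control atria. The mutant arrays stood above all others, and both control tissues overlapped. The mutant was 1.23-fold higher than control atria (0.30 ± 0.06, adjusted p = 0.0143) and 1.19-fold higher than ventricles (0.26 ± 0.06, adjusted p = 0.0150). Ventricle and control atrium differed by 0.04 ± 0.06 (adjusted p = 0.606). The second probe set gave 0.29 ± 0.11 for the mutant (adjusted p = 0.112), and without mutant replicate 2 the calls of the brightest against control atria (adjusted p = 0.0623) and against ventricles (0.0599) were lost.

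The other inhibitory alpha subunits did not pass between mutant and control atrium. Gnai1 differed by 0.17 ± 0.24 (adjusted p = 0.688) and Gnai3 by -0.18 ± 0.08 (adjusted p = 0.165). In ventricle against control atrium both were lower, Gnai1 by -1.17 ± 0.24 (adjusted p = 0.00355) and Gnai3 by -0.67 ± 0.08 (adjusted p = 0.000107). The Gnai1 call was lost with the Y-linked covariate (-0.75, adjusted p = 0.0592). Of the 5 subunits in this class, 3 were lower in the ventricle, with Gnao1 the furthest.

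Among the beta subunits, Gnb5 passed in none of the 3 comparisons. This partner of RGS6 read 9.31, 9.23 and 9.26 in mutant atria, 8.98, 9.20 and 9.10 in ventricles and 9.23, 9.24 and 9.26 in control atria by 1422208_a_at. Mutant and control atria overlapped, with a difference of 0.02 ± 0.07 (95% interval -0.14 to 0.18, adjusted p = 0.870), and the ventricle differed from the control atrium by -0.15 ± 0.07 (adjusted p = 0.107, and 0.0476 without ventricle replicate 2). The second Gnb5 probe set, dim at 4.48 to 4.81 on all arrays, gave 0.03 ± 0.09 and -0.02 ± 0.09. Of the 5 measured beta subunits, 0 passed in the mutant comparison by limma, with 0 at an unadjusted p under 0.05. In ventricle against control atrium, Gnb1 (-0.35 ± 0.07) and Gnb2 (-0.34 ± 0.08), the most common beta subunits, were lower, and Gnb3 was higher (0.96 ± 0.13, adjusted p = 0.000258).

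Of 11 measured gamma subunits, 2 passed in mutant against control atrium by their brightest probe set, both lower. Gng2, a gamma subunit that pairs with the common beta subunits, read 9.41, 8.45 and 9.53 in mutant atria, 6.83, 7.11 and 6.95 in ventricles and 10.49, 10.46 and 10.12 in control atria. It was 2.34-fold lower in the mutant (-1.23 ± 0.24, adjusted p = 0.00943), and all 4 of its probe sets passed, with differences from -0.99 to -1.51. In ventricle it was lower than in control atrium by -3.39 ± 0.24 (adjusted p = 4.04e-06), so that for Gng2 as for Gnao1 the mutant lay between both control tissues. Gng13, known best from taste and smell signalling, read 6.09, 5.95 and 6.20 in mutant atria, 5.82, 6.14 and 6.20 in ventricles and 7.70, 7.25 and 7.46 in control atria. Here the mutant overlapped the ventricle, and it was lower than the control atrium by -1.39 ± 0.13 (adjusted p = 0.000167). The second Gng13 probe set differed by 0.08 ± 0.12 (adjusted p = 0.688). Gng4 passed by 2 dimmer probe sets (-1.79 ± 0.14 and -0.82 ± 0.17) but not by its brightest (0.21 ± 0.08, adjusted p = 0.0988).

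**Figure D2:**
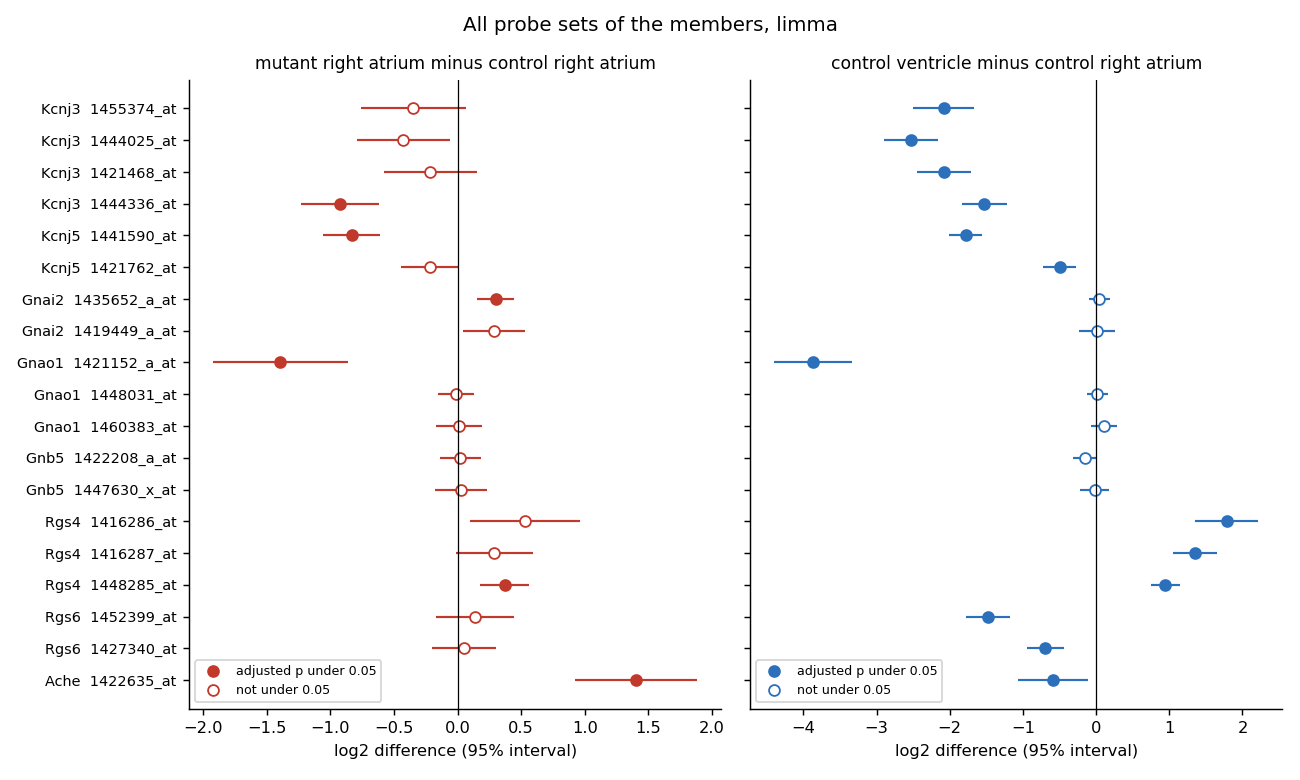
Log2 difference (horizontal axis) with its 95% interval for each of the 19 probe sets of the members, for mutant minus control right atrium (left, red) and control ventricle minus control right atrium (right, blue). Filled points passed at adjusted p under 0.05. Within Kcnj3, Kcnj5 and Gnao1 the probe sets of the same gene spread widely in the mutant, for Gnao1 from -1.39 to 0.01.

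The RGS proteins, which shorten the G protein signal, were 19 measured genes, of which 1 passed between mutant and control atrium and 9 between ventricle and control atrium. Rgs6, the main brake on the atrial M2 response in mice, read 8.57, 8.77 and 8.88 in mutant atria, 7.33, 7.22 and 6.81 in ventricles and 8.46, 8.68 and 8.66 in control atria by 1452399_at. The atria of both genotypes overlapped and all ventricles lay below. The mutant differed from control atria by 0.14 ± 0.14 (95% interval -0.17 to 0.44, adjusted p = 0.542), and the ventricle was 2.79-fold lower than control atria (-1.48 ± 0.14, adjusted p = 2.3e-05). The second probe set gave 0.05 ± 0.11 and -0.69 ± 0.11, with the second of these called.

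Rgs4, which is abundant in the sinus node and acts on Gi and Go, ran opposite to Rgs6 between the chambers. Its brightest probe set, 1416286_at, read 7.45, 8.26 and 7.85 in mutant atria, 9.01, 9.13 and 9.17 in ventricles and 7.40, 6.997 and 7.57 in control atria. The ventricles stood above all atria, and the mutant arrays overlapped the control atria with a wide spread of their own. Rgs4 was 3.44-fold higher in ventricle than in control atrium (1.78 ± 0.19, adjusted p = 6.48e-05). The mutant differed from the control atrium by 0.53 ± 0.19 (95% interval 0.10 to 0.96, adjusted p = 0.101), was called higher without mutant replicate 1 (0.73, adjusted p = 0.0258), and stood below the ventricle by -1.25 ± 0.19 (adjusted p = 0.00104).

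Of the other Rgs4 probe sets, 1416287_at gave 0.29 ± 0.14 in the mutant (adjusted p = 0.191). The dimmest, 1448285_at, read 4.47, 4.57 and 4.58 in mutant atria, 5.04, 5.08 and 5.23 in ventricles and 4.01, 4.24 and 4.26 in control atria. It was called higher in the mutant (0.37 ± 0.09, adjusted p = 0.0218). That call was lost without mutant replicate 2 (adjusted p = 0.0749), mutant replicate 3 (0.0756) or control atrium replicate 1 (0.0680). All 3 probe sets were called higher in ventricle than in control atrium, by 0.95 to 1.78.

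Rgs4 and Rgs5 are also genes of pericytes, so markers of these cells were read beside them. Of 9 markers of pericytes and smooth muscle, 5 were higher and 1 lower in mutant against control atria, and 7 higher and 1 lower in ventricles against control atria. The mean of the 9 was 9.61 to 9.73 in mutant atria, 10.1 to 10.3 in ventricles and 9.37 to 9.54 in control atria. The lower marker in both comparisons was Cnn1, which enters this mean. Cnn1 averaged 5.93 in mutant atria, 6.19 in ventricles and 9.31 in control atria. Their part in the Rgs4 and Rgs5 differences was not tested.

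The RGS gene that passed between mutant and control atrium by its brightest probe set was Rgs5. It read 11.58, 12.09 and 11.77 in mutant atria, 13.02, 13.08 and 13.29 in ventricles and 10.86, 11.13 and 11.24 in control atria. No group overlapped another. The mutant was higher by 0.74 ± 0.14 (adjusted p = 0.00815), with 3 of its 4 probe sets called, and the ventricle was higher than the control atrium by 2.05 ± 0.14 (adjusted p = 3.28e-06). Rgs5 itself belongs to the pericyte marker list.

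Rgs7, the closest relative of Rgs6 and likewise a partner of Gnb5, read 9.72, 9.47 and 9.81 in mutant atria, 7.18, 6.92 and 7.18 in ventricles and 9.41, 9.31 and 8.97 in control atria. Mutant arrays lay above control atria, and ventricles lay far below both. The mutant difference was 0.43 ± 0.13 (adjusted p = 0.0569), close to the threshold. It was called under 5 other settings, with adjusted p from 0.0273 (array weights) to 0.0439 (no dim probe sets), and without mutant replicate 2 (0.0492). The ventricle was lower than the control atrium by -2.14 ± 0.13 (adjusted p = 1.7e-06). Of the other RGS genes, Rgs12 (-1.65 ± 0.09) and Rgs2 (-1.06 ± 0.15) were also lower in the ventricle, as Rgs6 was, while Rgs5 and Rgs4 were higher. In the whole list 3 were higher and 6 lower in ventricle. Rgs7bp, the membrane anchor that holds R7 RGS proteins near the channel, was higher in ventricle than in control atrium (1.05 ± 0.11, adjusted p = 5.48e-05) and differed by -0.28 ± 0.11 in the mutant (adjusted p = 0.125, and 0.0208 without ventricle replicate 2).

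Ache was the member with the largest rise in the mutant. Its single probe set, 1422635_at, read 8.63, 8.30 and 8.83 in mutant atria, 6.67, 6.07 and 7.03 in ventricles and 7.15, 7.30 and 7.10 in control atria. Every mutant array stood well above every control atrium, and the ventricles lay below all atria. The mutant was 2.65-fold higher than the control atrium (1.40 ± 0.22, adjusted p = 0.00256) and 3.99-fold higher than the ventricle (2.00 ± 0.22, adjusted p = 0.000117). The ventricle was 1.51-fold lower than the control atrium (-0.59 ± 0.22, adjusted p = 0.0454). That last call was lost without any of 6 of the 9 arrays, with adjusted p between 0.0575 and 0.129, and with a covariate for Y-linked genes (0.152). It was also lost with quantile normalisation (0.0873), median centring (0.0605), trend and robust variance (0.05195) and a fit of only the 2 groups (0.0542). With the hepatocyte covariate its adjusted p was 0.855.

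Ache was therefore the one member for which the mutant atrium stood outside the range of both control tissues by more than 1 on the log2 scale. Its anchoring partner Colq, the collagen tail that fixes the enzyme outside the cell, also rose. Colq read 6.47, 6.63 and 6.78 in mutant atria, 6.39, 6.31 and 6.35 in ventricles and 5.85, 5.95 and 6.18 in control atria. It was higher in the mutant by 0.63 ± 0.10 (adjusted p = 0.00324) and in the ventricle by 0.36 ± 0.10 (adjusted p = 0.0167), each against control atria. The ventricle call was lost without control atrium replicate 1 (0.0643), control atrium replicate 2 (0.0532) or ventricle replicate 1 (0.0502).

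Ache is also made by cholinergic neurons and red cells, so markers of both were read beside it. Of 11 measured neuronal markers 1 was higher and none lower in the mutant against control atria, and their mean was 5.46 to 5.48 in mutant atria, 5.30 to 5.36 in ventricles and 5.21 to 5.27 in control atria. The one that passed was Uchl1, a ubiquitin hydrolase of neurons (1.88 ± 0.19, adjusted p = 0.000199). The markers that define a cholinergic neuron were dim in all groups: Chat, which makes acetylcholine, averaged 5.01 in mutant atria, 5.11 in ventricles and 4.81 in control atria, and its vesicle transporter Slc18a3 averaged 4.58, 4.75 and 4.58. Of 3 measured red cell markers, 0 passed in the mutant comparison by limma, with 0 at an unadjusted p under 0.05. These were dim too, at the 12.9 (Hba-a1), 28.3 (Slc4a1) and 44.2 (Alas2) percentile of all probe sets. Hba-a1 averaged 4.35 in mutant atria, 4.34 in ventricles and 4.42 in control atria. Markers this dim are a weak check on red cells, and no conclusion is drawn from them. The part of either cell type in the Ache difference was not tested.

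Of the 9 genes of acetylcholine synthesis, release and breakdown, Ache and Colq were the 2 that passed in the mutant comparison, both higher. In ventricle against control atrium, 4 were higher and 3 lower. The choline transporter-like genes Slc44a1 and Slc44a2 were lower in ventricle, by -0.93 ± 0.09 and -1.09 ± 0.16, and differed by -0.16 ± 0.09 and -0.24 ± 0.16 in the mutant without passing.

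The receptors that feed into the channel gave the largest difference of all pathway genes between mutant and control atrium. Drd2, the D2 dopamine receptor, is best known from the brain and couples to Gi and Go. It read 10.12, 9.99 and 9.75 in mutant atria, 7.01, 6.73 and 6.87 in ventricles and 6.76, 6.76 and 6.72 in control atria. Both control tissues stood together and the mutant stood far above. Drd2 was 9.22-fold higher in mutant than in control atria (3.21 ± 0.10, adjusted p = 1.47e-07), while ventricle and control atrium differed by 0.13 ± 0.10 (adjusted p = 0.332). This rests on a single probe set.

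Of the 6 measured other receptors that open GIRK channels, no further one passed in the mutant with all arrays. S1pr3, a sphingosine-1-phosphate receptor, differed by 0.52 ± 0.27 (adjusted p = 0.230), but it was called higher without mutant replicate 1 (0.87, adjusted p = 0.0140) and with the Y-linked covariate (0.58, adjusted p = 0.0240). It was higher in the ventricle by 1.19 ± 0.27 (adjusted p = 0.00525). Among the muscarinic receptors, Chrm1, Chrm3 and Chrm4 were measured, and 0 of the 3 passed in mutant or in ventricle against control atrium by limma, with 0 at an unadjusted p under 0.05 in the mutant and 2 in the ventricle (Chrm1 and Chrm3). Chrm3 read 4.29, 4.24 and 4.23 in mutant atria, 4.02, 3.97 and 3.98 in ventricles and 4.05, 4.34 and 4.16 in control atria, near the dim end of the arrays.

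**Figure D3:**
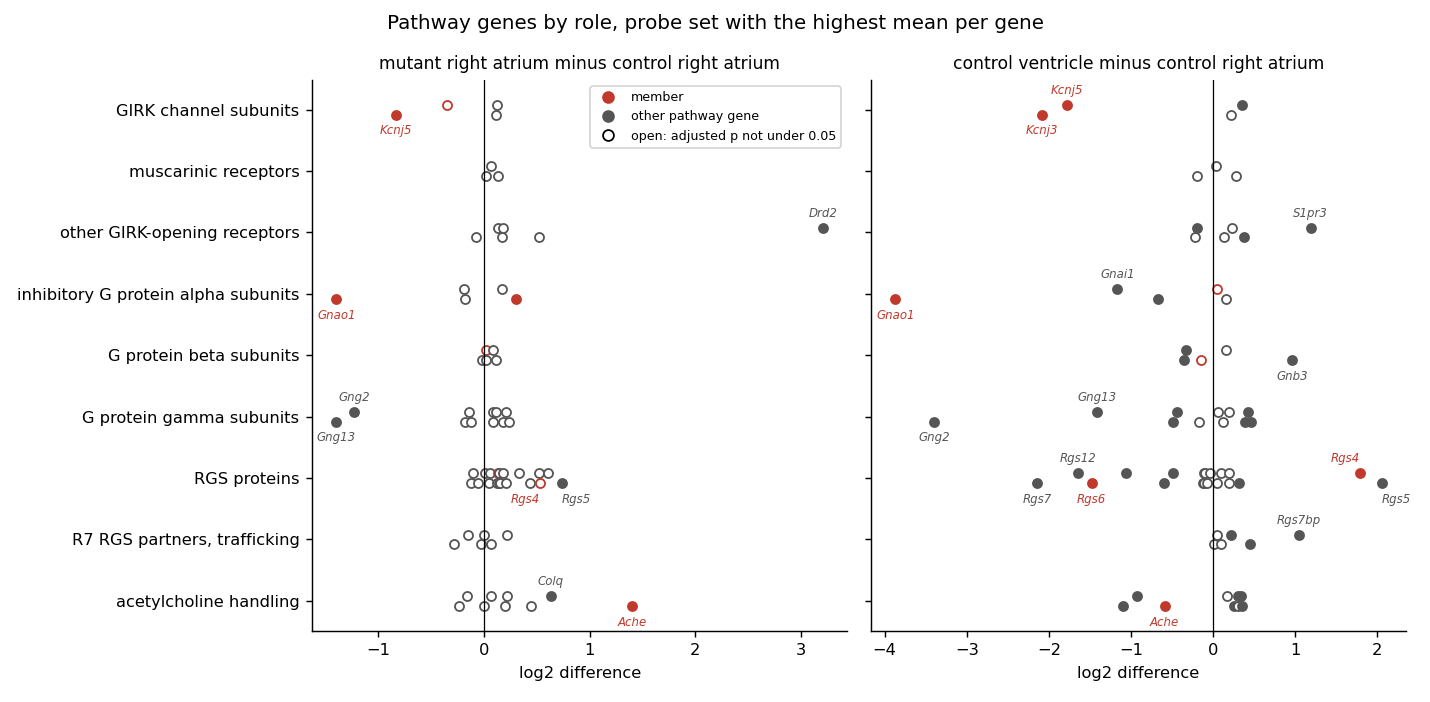
Log2 difference (horizontal axis) of the brightest probe set of each measured pathway gene, ordered by role, for mutant minus control right atrium (left) and control ventricle minus control right atrium (right). Red points are members and dark grey points are other genes of the pathway, filled where adjusted p was under 0.05. In the mutant, few genes moved away from 0, with Drd2 at 3.21 the furthest, while many did in the ventricle.

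Taken over the 60 measured pathway genes that are not members, 3 were higher and 2 lower in mutant against control atria, against 6.92% and 8.99% of all genes. In ventricle against control atria, 16 were higher and 16 lower, against 28.2% and 23.1% of all genes. Their median differences were 0.10 and 0.08. The mutant count is thus below the background share of called genes and the ventricle count close to it. Genes of the lists that were not analysed here for want of a probe set of their own were Chrm5, Adora1, Gabbr2, Gnb2l1, Gng5, Rgs21, Rgs22 and Kctd12.

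**Figure D4:**
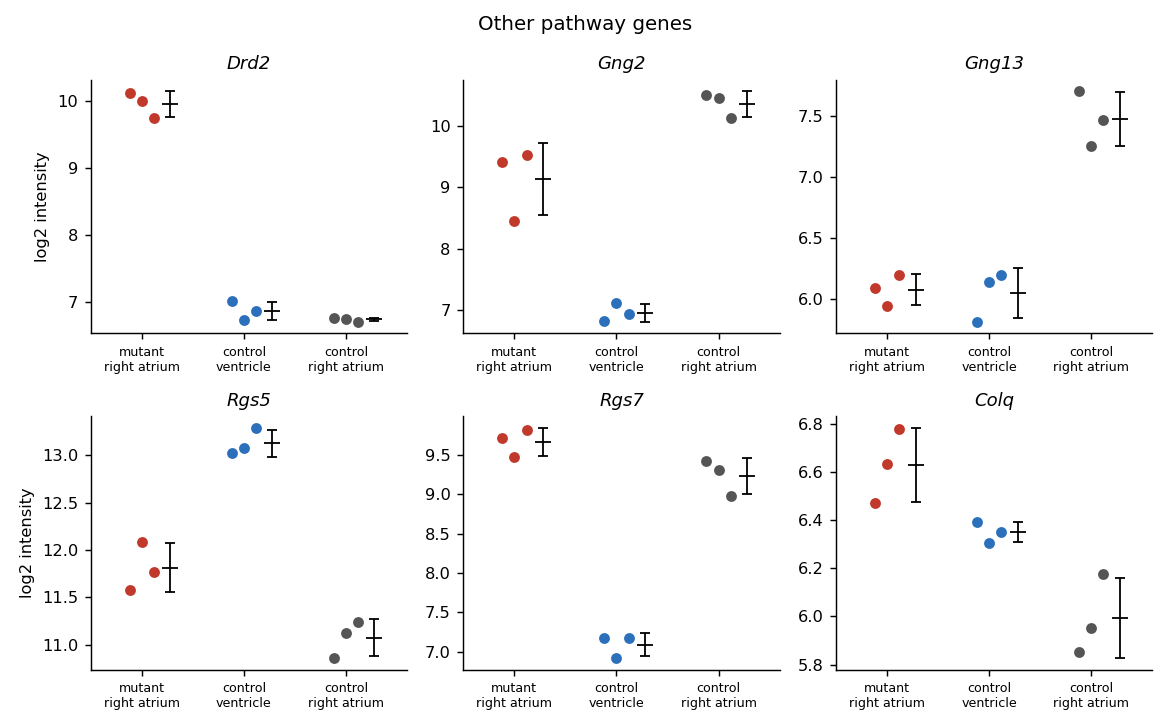
Log2 intensity (vertical axis, a separate range in each panel) of the brightest probe sets of Drd2, Gng2, Gng13, Rgs5, Rgs7 and Colq in mutant right atria (red), control ventricles (blue) and control right atria (grey). Points are the 3 arrays of a group and the bar is the mean ± SD. Drd2 was at 9.75 to 10.12 in the mutant and at or under 7.01 elsewhere, while Rgs7 was high in both kinds of atrium and at or under 7.18 in ventricle.

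The mutant atrium was then set directly against the ventricle, to give the distance of its level from that of ventricular tissue. Here 7 of the 8 members passed by their brightest probe set, 6 higher and 1 lower, against 31% of all genes (15.4% higher and 15.6% lower). Of 19 probe sets 13 passed, 10 higher and 3 lower, against 27.5% of all (13.4% higher and 14.1% lower). The members higher in the mutant atrium were Gnao1 (2.48 ± 0.24), Ache (2.00 ± 0.22), Kcnj3 (1.73 ± 0.19, adjusted p = 0.000115), Rgs6 (1.62 ± 0.14, adjusted p = 2.66e-05), Kcnj5 (0.95 ± 0.10, adjusted p = 9.88e-05) and Gnai2 (0.26 ± 0.06). Rgs4 was the one that was lower, and Gnb5 differed by 0.17 ± 0.07 (adjusted p = 0.102). Their median was 1.28, against -0.05 over all genes. Of the 60 other measured genes of the pathway, 18 were higher and 6 lower. The higher ones included Drd2 (3.08 ± 0.10), Rgs7 (2.57 ± 0.13) and Gng2 (2.17 ± 0.24), and the lower ones Rgs7bp (-1.33 ± 0.11) and Rgs5 (-1.31 ± 0.14), while Gng13 differed by 0.03 ± 0.13 (adjusted p = 0.909).

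The order of the 3 tissues thus differed from member to member. For Kcnj5 and Gnao1 it ran control atrium, mutant atrium, ventricle, with each step called by the brightest probe set and none by their other probe sets. For Rgs6 the atria of both genotypes overlapped and the ventricle was lower. For Kcnj3 the ventricle was lower too, and the step from control to mutant atrium, with arrays that did not overlap, was not called by the brightest probe set. For Rgs4 the ventricle was highest, and the step between the atria was not called by that probe set. For Ache it ran mutant atrium, control atrium, ventricle, with the last step close to the threshold and lost under several alternatives. For Gnai2 the mutant was highest and both control tissues did not differ beyond their spread. For Gnb5 no step passed.

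The genes with the most similar profile over the 9 arrays were sought for each member whose group means spanned at least 1 on the log2 scale, by the root mean square difference of the centred log2 values. Closest to Kcnj5 were Gltp, a glycolipid transfer protein (0.0812), Golm1, a Golgi membrane protein (0.0983), and the junction protein gene Plekha7 (0.114). Gltp differed by -0.85 in mutant and -1.75 in ventricle against control atrium, beside -0.83 and -1.78 for Kcnj5. Closest to Kcnj3 were the tyrosine kinase gene Ptk2b (0.204), the sinus node transcription factor gene Shox2 (0.208) and the phospholipase gene Pla2g4a (0.209). Closest to Rgs6 were the mono-oxygenase gene Fmo2 (0.1195), the protease gene Htra4 (0.127) and the macrophage scavenger receptor gene Msr1 (0.1603).

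The differences from the nearest genes were larger for Gnao1 and Ache, while those for Rgs4 were about the same as for Kcnj3. The measure is not scaled to the span of the group means. This span was 3.87 for Gnao1, 2.00 for Ache, 2.08 for Kcnj3 and 1.78 for Rgs4, so the values do not rank the members by closeness of match. Gnao1 stood nearest to the imprinted zinc finger gene Peg3 (0.301), Tbc1d1, a regulator of Rab GTPases (0.304), and the zinc finger gene Sall1 (0.316). Rgs4 stood nearest to the dehydrogenase gene Adhfe1 (0.193), the potassium channel gene Kcnj8 (0.205) and the reelin gene Reln (0.206), and Kcnj8 is on the pericyte marker list. Ache stood nearest to A930033H14Rik (0.294), Crip3 (0.3002) and Calhm6 (0.314). A930033H14Rik differed by 1.496 in mutant and 0.03 in ventricle against control atrium, beside 1.40 and -0.59 for Ache. The 9 values of a profile come from 3 groups, so likeness here mostly reflects the 3 group means.

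Finally, the calls of the members were set against the liver transcripts of the control atria. With the mean hepatocyte marker level of each array as a covariate, which nearly follows the groups, the median SE over all probe sets was 0.243 in mutant against control atrium, beside 0.0912 without it, and 0 of the 8 members passed by limma, with 4 at an unadjusted p under 0.05. By their brightest probe sets, the sizes for Kcnj5 (-0.90), Gnao1 (-1.74), Ache (1.55) and Gnai2 (0.46) were no smaller than without it. The second Gnai2 probe set gave 0.01, beside 0.29 without the covariate. Nr2f2 gave -0.25 by its brightest probe set, beside -0.74 without the covariate. Kcnj3 gave -0.23, Rgs4 0.08 by its brightest probe set and 0.04 by 1448285_at, Rgs5 0.22, Gng2 -0.68 and Colq 0.13. Drd2 still passed (3.32, adjusted p = 0.00412). For Kcnj5 and Gnao1 the ventricle difference from control atria still passed, at -1.85 (adjusted p = 0.0187) and -4.23 (adjusted p = 0.0206). By their brightest probe sets, that call was lost for Kcnj3 (-1.95, adjusted p = 0.126) and Rgs6 (-1.72, adjusted p = 0.0692). It was also lost for Rgs4 (1.31, adjusted p = 0.302) and Ache (-0.43, adjusted p = 0.855). With Y-linked genes as the covariate, 2 calls of the members were lost in all, Ache in ventricle against control atrium and Gnai2 in mutant against ventricle (adjusted p = 0.0652). In mutant against ventricle, where both tissues had low liver transcripts, the members that passed before passed with the hepatocyte covariate too.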

How the data were processed

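RNA of 9 mouse heart samples was labelled with a 3' IVT kit and hybridised to Affymetrix arrays, per the labels' protocols. The authors deposited 1 intensity per probe set and array, summarised with RMA per the submitters' processing notes. RMA corrects background and equalises the distributions of the arrays, which can shrink differences shared by most genes, and its software and version are not given in the sources used here. The deposited intensity values are on a linear scale, judged by their range, so log2 was taken and nothing else was normalised. Depth does not apply to arrays, and their number limits the precision.

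Of 45101 probe sets, 64 controls, 932 with several genes and 9160 with none were left out, which left 34945. Names came from the platform annotation, with 34741 gene IDs found in the RefSeq table. All 9 arrays entered 1 fit with a mean per group (limma 3.58.1 in R 4.3.3, lmFit and eBayes, 6 residual and 3.83 prior degrees of freedom), with 2-sided p-values adjusted by Benjamini and Hochberg's method over all probe sets and a threshold of 0.05. The fit was tested on simulated data. Within-array differences of Kcnj5 and Kcnj3 were tested by exact permutation.

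Members, pathway lists, markers and alternatives were chosen with earlier results of these data known. Named besides the members were pathway genes that passed in mutant against control atria, up to 4 per list with the smallest p between the control tissues, the 3 nearest profiles of a member, Nr2f2 and markers. The alternatives were a replicate block, trend and robust variance, no dim probe sets, quantile normalisation, median centring, 1 probe set or the mean per gene, only 2 groups, array weights, an adjusted p of 0.01, a 1.5-fold minimum, hepatocyte and Y-linked covariates, other probe sets, and leaving out each array. The labels say the replicates are biological, and same-numbered arrays showed no common deviation (correlations -0.10 to 0.11 in 9 pairs, and -0.15 to 0.12 in 18 others), so they were not paired. Python 3.11.15 with pandas 2.3.3 and matplotlib 3.10.9 made the figures.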

Additional observations from a re-analysis of the deposited data

How the results depend on the processing

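For the 19 probe sets of the members and 3 comparisons, 1173 values under the alternatives were set beside those reported. Of these, 1112 kept their side of the threshold, 7 gained a call and 54 lost one. A change of sign was seen in 31, of which 0 were called as reported and all had a reported size of at most 0.29, among them Rgs4 1416287_at (-0.11), Rgs6 1452399_at (-0.09) and Gnb5 1422208_a_at (-0.04) in mutant against control atrium with the hepatocyte covariate. With the replicate number as a block, 4226, 15750 and 8938 probe sets passed for mutant against control atrium, ventricle against control atrium and mutant atrium against ventricle, beside 4861, 16492 and 9612 without it, and the counts of members called were the same. The numbers do not pair the samples.

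Over all features the 3 counts, in that order, were 3192, 9615 and 5956 with 1 probe set per gene, 2893, 9442 and 5775 with the mean of a gene's probe sets (fewer features are tested in both), and 1958, 10405 and 5485 at an adjusted p of 0.01. Against a minimum fold of 1.5 they were 326, 1982 and 1003. There 0 members and 0 of their probe sets passed in mutant against control atrium by limma (3 and 4 at an unadjusted p under 0.05), and 4 members with 6 probe sets in mutant against ventricle. With the hepatocyte covariate 74 and 949 probe sets passed in the first 2 comparisons, with 0 members and 0 probe sets in the first (4 and 4 unadjusted) and 2 and 2 in the second. Leaving out 1 array gave 2714 to 4645 for mutant against control atrium, with 2714 without mutant replicate 2, 3049 without mutant replicate 3, 2934 without control atrium replicate 1 and 3002 without control atrium replicate 2. It gave 3 to 5 of the 8 members and 4 to 7 of their 19 probe sets.

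Kcnj5 minus Kcnj3 in mutant against control atrium turned to 0.091 with 1441590_at and 1444336_at, and to 0.13, 0.21 and 0.70 with 1421762_at against 1455374_at, 1444025_at and 1444336_at. With 1441590_at and 1444336_at it was -0.25 in ventricle against control atrium and 0.34 in mutant against ventricle. Without 1 array it lay between -0.55 and -0.43, between 0.16 and 0.57 and between -1.05 and -0.64 in the 3 comparisons. Gng4 turned to -0.80 in the mutant and -1.04 in the ventricle, each against control atrium, with the mean of its probe sets, where 2 of 3 probe sets are lower. Kcnj9 (-0.40) and Colq (-0.18) turned in ventricle against control atrium with the hepatocyte covariate, and the cause was not tested.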
